A study of Mus musculus with 12 samples.

Results

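The Rab GTPase genes of the mouse macrophage line RAW264.7 were described in clones with and without a deletion named NRE1, at rest and after an inflammatory stimulus. A gene was a member when its mouse symbol was Rab followed by a number, with at most 1 further letter and 1 further digit, and when the annotation called it protein coding. Of 59 such genes in the annotation, 42 had a row among the 12483 rows of the count table, and all 42 passed the filter on low counts. The other 17 (among them Rab27b, Rab38 and Rab37) were not analysed here.

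Rab proteins are small GTPases that give membranes their identity. Loaded with GTP by exchange factors, they sit on 1 compartment or a few and recruit effectors such as motors, tethers and lipid phosphatases, and GTPase-activating proteins switch them off, after which they can leave the membrane. In macrophages they govern the passage of phagosomes and endosomes toward lysosomes, the delivery of receptors and cytokines to the surface, and the release of secretory lysosomes.

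Each clone gave 1 library in medium and 1 after 6 h with LPS at 10 ng/mL and IFN-gamma at 50 ng/mL, a bacterial cell wall component and a lymphocyte cytokine. WT clones 1, 2 and 3 and KO clones 1A, 1B and 2 formed 4 groups of 3 libraries: WT in medium, WT under LPS/IFN-gamma, KO in medium and KO under LPS/IFN-gamma. According to the labels, the cells had received a pair of CRISPR constructs for the sequence on either side of NRE1, were selected by GFP and puromycin, and were expanded from single cells. The labels do not say whether the WT clones carried the constructs, what NRE1 stands for, or how KO 1A and KO 1B are related. No row of the table has the name NRE1, so no targeted gene could be checked in each library.

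Libraries held 10624591 to 14388590 counts, of which Rab genes took 0.278% to 0.397% and mitochondrial genes 1.24% to 2.53%. All 9 macrophage markers looked for had a row, and their summed level was 8130 to 18700 CPM in WT and 4380 to 13700 CPM in KO clones in medium, and 8950 to 18400 and 5390 to 11300 CPM under stimulation (CPM, counts relative to the library's total after TMM scaling, which assumes that most genes do not change). Lyz2 was the largest part of that sum in each library, with a mean of 10000 CPM in WT and 4820 CPM in KO medium. The clones differed widely, at 10300, 14800 and 4990 CPM in WT clones 1, 2 and 3. In KO clones 1A, 1B and 2 the Lyz2 values were 2110, 1790 and 10600 CPM, so KO 2 lay within the WT range. Mertk was near the floor, with 9 counts over the WT and 2 over the KO medium libraries. Of 31 markers of other cell types only Kit and S100a8 had a row, at 3.38 CPM or less summed over each list, so B cell, T cell, fibroblast and epithelial markers had none. Kit, a mast cell marker, lay between 0 and 0.0783 CPM in medium and between 0.38 and 3.38 CPM under stimulation. KO 1A and KO 1B were the most alike clones within a group. The chi-square per degree of freedom of their counts was 6.63 without and 4.7 with LPS/IFN-gamma, and 25.2 to 77.2 between other clones of a group. They are not 1 library deposited again, but if they share 1 origin, only 2 clones in each KO group are independent. A fit with the counts of 1A and 1B summed is given beside the counts of calls. P-values below measure the spread between these clones. In bulk RNA, fewer cells with a transcript and less of it per cell cannot be told apart.

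LPS/IFN-gamma changed the Rab repertoire by moving some genes up several-fold and a few down, among them Rab27a and Rab3a of regulated secretion. In WT clones 19 of 42 members rose, 5 fell and 18 were not called, where called means a Benjamini-Hochberg adjusted p below 0.05 in edgeR's quasi-likelihood test over all 12231 genes tested. Of the members 57.1% were called, against 47.4% of all genes. Higher calls made up 45.2% of the members against 23.8% of all genes, and lower calls 11.9% against 23.6%. In KO clones 18 rose, 6 fell and 18 were not called, 57.1% against 54.3% of all genes, with 42.9% against 26.7% higher and 14.3% against 27.6% lower. The median log2 fold change of the members was 0.36 in WT and 0.51 in KO clones, beside -0.01 for all genes in each. The calls in both genotypes were shared by 17 genes that rose and 4 that fell (Rab27a, Rab3a, Rab4a and Rab34), and no member was called in opposite directions. A fit that pairs the medium and stimulated library of each clone (clone as a block) gave higher counts. There 24 members rose and 6 fell in WT clones and 21 rose and 9 fell in KO clones. Of all 12231 genes 7485 and 8082 were called in that fit, against 5796 and 6638 without the block. With KO 1A and 1B summed, 17 rose and 4 fell in WT clones and 14 rose and 3 fell in KO clones. That made 21 and 17 of 42 members called in the summed fit, beside 5088 and 4837 of 12355 genes. The calls lost in that fit were those of Rab19, Rab32 and Rab34 in WT clones, and of Rab4a, Rab7b, Rab12, Rab21, Rab23, Rab29 and Rab3d in KO clones.

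The scale matters for these counts. Scaling by the library totals shifted the median over all genes to -0.37 in WT and -0.39 in KO clones. On that scale 13 members were higher and 15 lower in WT clones, and 12 were higher and 14 lower in KO clones. The share of calls that were higher went from 79.2% to 46.4% for the members in WT clones and from 75% to 46.2% in KO clones (all genes: from 50.3% to 23.2% and from 49.1% to 24.5%). The direction of the calls held for 13 higher and 5 lower genes in WT clones and for 12 higher and 6 lower genes in KO clones. Those higher under either scale in both genotypes were Rab1a, Rab5a, Rab5c, Rab6a, Rab8b, Rab10, Rab11a, Rab20, Rab22a, Rab33b and Rab43, and those lower were Rab27a, Rab3a, Rab34 and Rab4a. In WT clones 10 members were called lower with library totals alone (Rab1b, Rab3d, Rab4b, Rab8a, Rab11b, Rab14, Rab23, Rab24, Rab28 and Rab31). Clone by clone, 25 members were higher under stimulation in each of the 6 clones, 8 were lower in each, and 9 were mixed. The same count was not made over all genes, so it is not shown to be particular to Rabs.

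**Figure D1:**
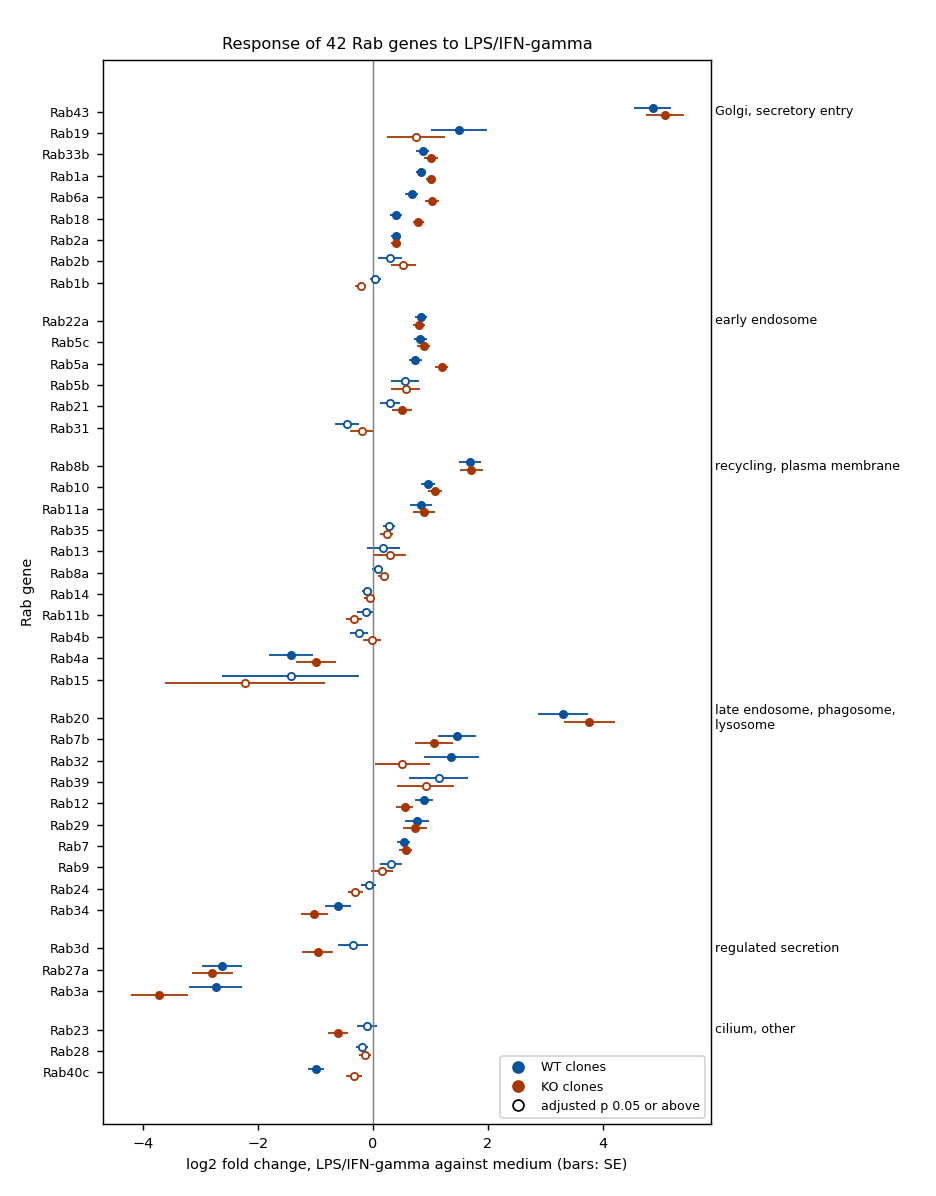
Log2 fold change of each of the 42 Rab genes, LPS/IFN-gamma against medium, in WT and KO clones, grouped by the compartment each is best known for. Points are fitted values, bars their SE, and open points genes with an adjusted p of 0.05 or above. Rab43 and Rab20 lie farthest to the right and Rab3a and Rab27a lie on the left among the called genes.

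To show what lies upstream of these genes, promoter windows were read from the RefSeq table for GRCm38.p6, the build of the count table. Each holds 300 bases, 250 before and 50 after an annotated start. The table had 50 windows for 38 of the 42 members. Both strands were searched for the interferon gamma element GAS (TTCNNNGAA), the core of the interferon response element ISRE (GAAA, any 2 bases, then GAAA), the kappaB site of NF-kB and the E-box CACGTG. GAS stood in 4 of 50 member windows (8.0%) against 8.3% of all 32851 windows in the table, ISRE in 1 (2.0%) against 3.44%, kappaB in 3 (6.0%) against 8.46%, and the E-box in 6 (12%) against 7.15%. Of the 17 genes higher in both genotypes 14 had a window, and Rab18, Rab2a and Rab7b had none. In the 18 windows of those 14 genes there were 1 GAS, 0 ISRE, 1 kappaB and 2 E-box windows. Windows are shown for the pair of genes with the largest rises and for 3 genes picked for their matches. Rab43, the gene with the largest rise, had none of these letters in any of its 4 windows, and the one at its GENCODE start, chr6:87812115-87812414 on the minus strand, is shown first. Rab20, with the next largest rise, is shown with its E-box, 46 bases before the start (chr8:11478591-11478890, minus). Rab11a is the only 1 of those 14 genes with a GAS match, 199 bases before the start, and a kappaB match 21 bases before (chr9:64737707-64738006, minus). Rab34, lower in both, has a GAS match 200 bases before the start (chr11:78188177-78188476, plus). Rab19 has the only ISRE matches among the members with a window, a pair that overlap each other and begin 10 and 4 bases before the start, and a GAS match 209 bases before (chr6:39381103-39381402, plus). Capitals mark the matches, and each sequence runs 5′ to 3′ on the gene's strand. A match is a string of letters, not a shown binding site.
Rab43: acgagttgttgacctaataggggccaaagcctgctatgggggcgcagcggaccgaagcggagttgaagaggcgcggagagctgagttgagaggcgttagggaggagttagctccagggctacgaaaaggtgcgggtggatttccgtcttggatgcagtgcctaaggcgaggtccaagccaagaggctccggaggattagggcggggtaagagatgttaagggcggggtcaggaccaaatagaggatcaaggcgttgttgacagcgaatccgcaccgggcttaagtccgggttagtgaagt
Rab20: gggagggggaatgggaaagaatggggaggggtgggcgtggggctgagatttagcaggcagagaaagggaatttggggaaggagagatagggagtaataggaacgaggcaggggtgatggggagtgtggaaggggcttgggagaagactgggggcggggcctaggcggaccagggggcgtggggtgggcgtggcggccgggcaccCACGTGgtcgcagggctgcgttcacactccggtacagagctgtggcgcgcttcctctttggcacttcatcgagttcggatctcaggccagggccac
Rab11a: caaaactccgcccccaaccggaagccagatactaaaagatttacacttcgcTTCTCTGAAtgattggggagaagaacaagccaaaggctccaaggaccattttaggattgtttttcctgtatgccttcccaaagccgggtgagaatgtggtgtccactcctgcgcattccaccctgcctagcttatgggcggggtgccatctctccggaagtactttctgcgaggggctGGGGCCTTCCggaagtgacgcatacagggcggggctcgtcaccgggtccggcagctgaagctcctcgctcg
Rab34: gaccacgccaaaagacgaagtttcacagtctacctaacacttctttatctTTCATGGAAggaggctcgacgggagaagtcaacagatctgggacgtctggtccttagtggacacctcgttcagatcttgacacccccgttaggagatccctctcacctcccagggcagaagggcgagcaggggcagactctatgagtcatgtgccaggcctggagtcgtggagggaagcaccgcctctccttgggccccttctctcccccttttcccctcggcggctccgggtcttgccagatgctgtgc
Rab19: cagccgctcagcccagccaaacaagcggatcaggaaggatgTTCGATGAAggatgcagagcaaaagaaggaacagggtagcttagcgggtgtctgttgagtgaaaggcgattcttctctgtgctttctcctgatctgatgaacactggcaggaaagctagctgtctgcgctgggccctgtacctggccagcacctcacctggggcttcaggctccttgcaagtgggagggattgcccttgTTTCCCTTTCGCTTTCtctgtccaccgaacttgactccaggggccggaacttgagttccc

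The members are described by the compartment each is best known for, although many Rabs act in more than 1 place. Beside the counts by compartment, 23.8% of all genes were called higher and 23.6% lower in WT clones. In KO clones these shares were 26.7% and 27.6%. Among the 9 Rabs of the Golgi and of entry into the secretory pathway, 7 rose in WT (77.8%) and 6 in KO clones (66.7%), and none was called lower. Their summed level was 615 ± 16 CPM in WT medium and 1340 ± 179 CPM under stimulation (mean ± SD of 3 libraries, as below), and 559 ± 4.61 and 1330 ± 42.6 CPM in KO clones. Without Rab43 the other 8 genes summed to 598 ± 12.5 and 857 ± 42.2 CPM in WT and to 545 ± 7.17 and 847 ± 44.6 CPM in KO clones. Rab43, a Golgi-associated Rab at chr6:87788853-87812164 on the minus strand, led them. Rab43 stood at 17.7, 19.6 and 12.1 CPM in medium and 314, 480 and 654 CPM under LPS/IFN-gamma in WT clones 1, 2 and 3. In KO clones 1A, 1B and 2 the Rab43 values were 14.3, 10.8 and 17.3 CPM and 523, 530 and 382 CPM. The stimulated libraries were above the medium libraries in both genotypes with no overlap. The log2 fold change of Rab43 was 4.88 ± 0.323 (adjusted p = 1.6e-06) in WT and 5.08 ± 0.327 (adjusted p = 1e-06) in KO clones. The Rab43 rise comes with a limit: 75.4% of its exon bases also belong to the predicted gene Gm45140, which was not analysed here, and its reads could be split between both. Isy1, the gene beside it, was not called in either response (log2 fold change 0.30 ± 0.151, adjusted p = 0.127 in WT, and 0.22 ± 0.151, adjusted p = 0.248 in KO clones).

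Rab1a and Rab1b, close relatives in transport from the endoplasmic reticulum to the Golgi, parted under stimulation. Rab1a stood at 157, 165 and 155 CPM in medium and 256, 310 and 287 CPM under LPS/IFN-gamma in the WT clones. Rab1a values in the KO clones were 143, 144 and 130 CPM and 284, 274 and 286 CPM. Every stimulated library was above every medium library of its genotype, and Rab1a rose by 0.84 ± 0.091 (adjusted p = 4.1e-05) and 1.02 ± 0.091 (adjusted p = 9e-06) on the log2 scale. Rab1b, the highest of the group per kilobase in medium, stood at 158, 150 and 154 CPM in medium and 155, 174 and 145 CPM under LPS/IFN-gamma in the WT clones. Rab1b values in the KO clones were 144, 137 and 145 CPM and 122, 113 and 134 CPM. Its WT groups overlapped, and its KO libraries were all lower under stimulation than in medium, yet neither passed the test (0.04 ± 0.093, adjusted p = 0.75 in WT, and -0.21 ± 0.094, adjusted p = 0.077 in KO clones). The direction of Rab1b in WT clones depends on the scale, since library totals alone gave -0.32 ± 0.088 (adjusted p = 0.0097).

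Rab6a, which serves transport back through the Golgi, stood at 112, 93.1 and 87 CPM in medium and 170, 153 and 145 CPM under LPS/IFN-gamma in the WT clones. Rab6a values in the KO clones were 76.9, 85.8 and 81.9 CPM and 162, 156 and 181 CPM. The groups did not overlap in either genotype, and Rab6a rose by 0.68 ± 0.113 (adjusted p = 0.00062) and 1.03 ± 0.114 (adjusted p = 3.3e-05). Rab33b, a Golgi Rab that binds the autophagy protein Atg16l1, stood at 15.4, 19.8 and 17.2 CPM in medium and 29.8, 33.8 and 31.8 CPM under LPS/IFN-gamma in the WT clones. Rab33b values in the KO clones were 18.1, 16.4 and 17.4 CPM and 34, 33.2 and 37.9 CPM. It rose in both genotypes without overlap (0.86 ± 0.117, adjusted p = 0.00017, and 1.02 ± 0.118, adjusted p = 4.4e-05).

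Rab19, a little-studied Golgi Rab, was near the bottom of the range, with 54 counts in all 3 WT medium libraries together. Rab19 stood at 1.16, 0.626 and 1.87 CPM in medium and 4.02, 1.32 and 5.13 CPM under LPS/IFN-gamma in the WT clones. Rab19 values in the KO clones were 0.825, 1.22 and 1.23 CPM and 2.15, 1.96 and 1.42 CPM. The WT groups overlapped, because stimulated clone 2 lay below clone 3 in medium. Rab19 was called in WT clones (1.50 ± 0.488, adjusted p = 0.026) and lost the call without WT clone 1 (adjusted p = 0.13), without KO 1B (0.053) and with KO 1A and 1B summed (0.05 after rounding, above the threshold). In KO clones it was not called (0.75 ± 0.51, adjusted p = 0.23), and the difference between the genotypes was not called either (-0.75 ± 0.705, adjusted p = 1). Rab2a, of the step between endoplasmic reticulum and Golgi, rose by 0.41 ± 0.083 and 0.40 ± 0.083, and Rab18, of endoplasmic reticulum and lipid droplets, by 0.41 ± 0.102 and 0.79 ± 0.103. The Rab2a calls and the WT call of Rab18 were lost with library totals alone, and the WT call of Rab18 also without WT clone 3 (adjusted p = 0.059). Rab2b was not called (0.29 ± 0.211, adjusted p = 0.27, and 0.53 ± 0.212, adjusted p = 0.053), and had an adjusted p of 0.043 and 0.0026 with clone as a block. It shares 64.0% of its exon bases with the predicted gene Gm43766.

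Of the 6 Rabs of early endosomes and uptake, 3 rose in WT (50%) and 4 in KO clones (66.7%), again with none lower. Rab5a and Rab5c, which drive fusion of early endosomes, and Rab22a, a close relative on the same membranes, were called in both genotypes. Rab5a stood at 40.6, 40.4 and 41.4 CPM in medium and 69.3, 60.5 and 75 CPM under LPS/IFN-gamma in the WT clones. Rab5a values in the KO clones were 32.8, 37 and 39.4 CPM and 83.4, 74 and 93.2 CPM. No stimulated library overlapped a medium library of its genotype, and the log2 fold change was 0.74 ± 0.116 (adjusted p = 0.00043) in WT and 1.20 ± 0.117 (adjusted p = 1.5e-05) in KO clones. Rab5c rose by 0.83 ± 0.118 and 0.89 ± 0.118 and Rab22a by 0.85 ± 0.105 and 0.80 ± 0.105. Rab5b missed the call (0.56 ± 0.249, adjusted p = 0.086, and 0.57 ± 0.251, adjusted p = 0.075), and passed it with clone as a block (adjusted p = 0.0015 and 0.0012). Rab21, which handles integrin traffic, was called in KO clones (0.51 ± 0.18, adjusted p = 0.032) and not in WT clones (0.30 ± 0.179, adjusted p = 0.19, and 0.036 in the blocked fit). Without KO 1A, 1B or 2 the KO call of Rab21 was lost, at an adjusted p of 0.089, 0.1 and 0.13.

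Rab31, of traffic between the trans-Golgi and endosomes, was the highest Rab transcript per kilobase in medium. Rab31 stood at 474, 427 and 438 CPM in medium and 436, 225 and 314 CPM under LPS/IFN-gamma in the WT clones. Rab31 values in the KO clones were 355, 372 and 463 CPM and 385, 357 and 296 CPM. Both genotypes overlapped between conditions, and WT clone 2 under stimulation was the lowest of the 12 libraries. It was not called in WT clones (-0.46 ± 0.209, adjusted p = 0.093, and 0.037 in the blocked fit) or in KO clones (-0.20 ± 0.208, adjusted p = 0.44).

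Recycling and delivery to the plasma membrane is served by 11 of the members, of which 3 rose and 1 fell in each genotype. That is 36.4% called, below the 47.4% of all genes in WT and 54.3% in KO clones. Rab8b, which carries cargo to the cell surface, had the largest rise among these 11 members. Rab8b stood at 127, 185 and 121 CPM in medium and 366, 532 and 498 CPM under LPS/IFN-gamma in the WT clones. Rab8b values in the KO clones were 112, 106 and 144 CPM and 400, 373 and 416 CPM. Stimulated and medium libraries did not overlap, and Rab8b rose by 1.69 ± 0.196 (adjusted p = 6.2e-05) and 1.72 ± 0.197 (adjusted p = 4.1e-05). Rab10, known for delivering glucose transporters and Toll-like receptor 4 to the surface, stood at 139, 155 and 157 CPM in medium and 255, 346 and 279 CPM under LPS/IFN-gamma in the WT clones. Rab10 values in the KO clones were 150, 161 and 150 CPM and 326, 305 and 345 CPM. It rose without overlap, by 0.96 ± 0.117 (adjusted p = 8.5e-05) and 1.09 ± 0.118 (adjusted p = 2.9e-05). Rab11a, the Rab of the recycling endosome, rose by 0.83 ± 0.19 (adjusted p = 0.0042) and 0.89 ± 0.19 (adjusted p = 0.0023).

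Rab4a, of fast recycling from early endosomes, went the other way at a low level. Rab4a stood at 1.16, 1.17 and 1.31 CPM in medium and 0.639, 0.406 and 0.285 CPM under LPS/IFN-gamma in the WT clones. Rab4a values in the KO clones were 1.57, 1.01 and 1.97 CPM and 0.921, 0.587 and 0.766 CPM. The groups did not overlap in either genotype, and Rab4a fell by 1.43 ± 0.381 (adjusted p = 0.01) in WT clones and by 0.99 ± 0.356 (adjusted p = 0.035) in KO clones. Rab4a rested on 52 counts in WT medium, and leaving out WT clone 3 took away its WT call (adjusted p = 0.081). Its KO call was lost without KO 1A (0.1), 1B (0.067) or 2 (0.2), with 1A and 1B summed (0.069) and by DESeq2 (0.1). The relatives Rab8a, Rab11b, Rab4b, Rab14, Rab35, Rab13 and Rab15 were not called in either genotype, with log2 fold changes from -1.43 (Rab15) to 0.28 (Rab35) in WT clones and from -2.23 (Rab15) to 0.29 (Rab13) in KO clones. In the blocked fit Rab35 was called higher in WT clones (adjusted p = 0.033), and Rab15 (0.017) and Rab11b (0.029) lower in KO clones. Rab15 rested on 35 counts in WT medium and 4 in stimulated KO clones, and Rab8a changed sign with library totals alone (-0.28 ± 0.094, adjusted p = 0.027, in WT clones). Rab4b shares 65.0% of its exon bases with Gm21983, which had almost the same counts (2664 for Rab4b and 2624 for Gm21983), so its values are uncertain.

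Of the 10 Rabs of late endosomes, phagosomes, lysosomes and autophagy, 6 were higher in WT (60%) and 5 in KO clones (50%). In each genotype 1 of the 10 was lower (10%). The summed level of the 10 was 397 ± 51 CPM in WT medium and 756 ± 152 CPM under stimulation, and 361 ± 51 and 547 ± 28.9 CPM in KO clones. Rab20, which acts on maturing phagosomes, had the second largest rise of the family. Rab20 stood at 4.71, 2.35 and 4.48 CPM in medium and 35, 18 and 62.6 CPM under LPS/IFN-gamma in the WT clones. Rab20 values in the KO clones were 3.67, 3.65 and 2.71 CPM and 55.1, 47.5 and 34.6 CPM. Each stimulated library was above each medium library, though the stimulated WT clones differed among themselves, with clone 2 the lowest and clone 3 the highest. The log2 fold change of Rab20 was 3.31 ± 0.434 (adjusted p = 0.00015) in WT and 3.77 ± 0.444 (adjusted p = 5.6e-05) in KO clones.

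Rab7b, of transport from late endosomes to the Golgi, stood at 58.2, 129 and 95.5 CPM in medium and 145, 333 and 303 CPM under LPS/IFN-gamma in the WT clones. Rab7b values in the KO clones were 49.9, 62 and 74.4 CPM and 133, 137 and 121 CPM. WT clone 1 was the lowest WT clone in both conditions, and no group overlapped its medium counterpart. Rab7b rose by 1.47 ± 0.33 (adjusted p = 0.0043) in WT and 1.07 ± 0.329 (adjusted p = 0.018) in KO clones. The KO call was lost without KO 1A (adjusted p = 0.12) or 1B (0.099) and with both summed (0.11). Rab32, a Rab of lysosome-related organelles with a part in defence against bacteria, stood at 44.3, 58.4 and 30.8 CPM in medium and 64.4, 169 and 110 CPM under LPS/IFN-gamma in the WT clones. Rab32 values in the KO clones were 39.1, 32.6 and 89.1 CPM and 60.5, 53.5 and 115 CPM. KO clone 2 was above 1A and 1B in both conditions, so the KO groups overlapped and the WT groups did not. Rab32 was called in WT clones (1.36 ± 0.48, adjusted p = 0.038) but not without WT clone 2 (0.13), WT clone 3 (0.15) or KO 1A (0.06), with KO 1A and 1B summed (0.051) or with library totals alone (0.084). In KO clones its change was 0.51 ± 0.474 (adjusted p = 0.38).

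Rab7, the Rab that brings late endosomes and phagosomes to fusion with lysosomes, had the highest level per kilobase of this group in medium. Rab7 stood at 89.9, 94.3 and 84.7 CPM in medium and 133, 134 and 122 CPM under LPS/IFN-gamma in the WT clones. Rab7 values in the KO clones were 77.5, 83.8 and 64.1 CPM and 106, 119 and 110 CPM. It rose without overlap by 0.53 ± 0.107 (adjusted p = 0.002) and 0.57 ± 0.107 (adjusted p = 0.0011), a change that library totals alone put at 0.18 and 0.19 without a call. Rab12, of receptor degradation, rose by 0.89 ± 0.153 and 0.55 ± 0.152, and Rab29, of the Golgi and of stressed lysosomes, by 0.77 ± 0.211 and 0.74 ± 0.212. Without KO 1A the KO calls of Rab12 (adjusted p = 0.084) and Rab29 (0.07) were lost, as was that of Rab29 without KO 1B (0.073) and its WT call without WT clone 3 (0.099). Rab29 lies 151.8 kb from Rab7b on chromosome 1, and Rab7 186.9 kb from Rab43 on chromosome 6, the closest pairs of members on a chromosome.

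Rab34, linked to macropinocytosis and lysosome position, was the member of this group that fell. Rab34 stood at 48.2, 34.5 and 37.6 CPM in medium and 36.2, 19.5 and 23.2 CPM under LPS/IFN-gamma in the WT clones. Rab34 values in the KO clones were 35.2, 38.6 and 49.2 CPM and 17.9, 19.9 and 22.9 CPM. The WT groups overlapped, since stimulated clone 1 was above clone 2 in medium, but each clone was lower under stimulation than in medium. Rab34 changed by -0.61 ± 0.228 (adjusted p = 0.047) in WT and -1.02 ± 0.231 (adjusted p = 0.0034) in KO clones. The WT call held in 1 of the 6 fits that left out a clone, with the highest adjusted p, 0.16, without WT clone 3, and was lost with RLE size factors (0.051) and with KO 1A and 1B summed (0.077), while it was 0.00067 with clone as a block. Rab39, a Rab of phagosomes and of caspase-1 traffic, was not called (1.15 ± 0.513, adjusted p = 0.087, and 0.92 ± 0.493, adjusted p = 0.14), and was called with the block (0.0026 and 0.0022). Rab9 and Rab24 were not called in either genotype, though Rab24 had an adjusted p of 0.017 with the block in KO clones. Rab24 shares 62.4% of its exon bases with Prelid1.

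Of the 3 measured Rabs of regulated secretion 2 fell in WT (66.7%) and 3 in KO clones (100%), and none rose. Their summed level went from 45.2 ± 3.03 to 19.1 ± 3.66 CPM in WT and from 42.3 ± 0.849 to 11.1 ± 2.13 CPM in KO clones. Rab27a, which docks secretory lysosomes and multivesicular bodies at the plasma membrane, lies at chr9:73044854-73097629 on the plus strand and was the highest of them per kilobase in medium. Rab27a stood at 21.8, 20 and 24.3 CPM in medium and 5.2, 1.42 and 3.99 CPM under LPS/IFN-gamma in the WT clones. Rab27a values in the KO clones were 21.6, 22 and 22.8 CPM and 2.66, 4.2 and 2.63 CPM. Stimulated libraries were far below medium libraries in each clone, with a log2 fold change of -2.63 ± 0.349 (adjusted p = 0.00015) in WT and -2.80 ± 0.354 (adjusted p = 8.2e-05) in KO clones.

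Rab3a, best known from synaptic vesicle release, stood at 4.56, 4.54 and 3.67 CPM in medium and 1.28, 0.203 and 0.38 CPM under LPS/IFN-gamma in the WT clones. Rab3a values in the KO clones were 5.77, 6.36 and 4.52 CPM and 0.307, 0.489 and 0.438 CPM. It was close to the limit of detection under stimulation, with 12 counts over the 3 KO libraries against 180 in WT medium. The log2 fold change of Rab3a was -2.74 ± 0.464 (adjusted p = 7e-04) in WT and -3.72 ± 0.496 (adjusted p = 0.00011) in KO clones. Rab3d, a Rab of granule exocytosis, was called lower in KO clones (-0.96 ± 0.268, adjusted p = 0.011) and not in WT clones (-0.34 ± 0.26, adjusted p = 0.3), and its difference between genotypes was not called (-0.62 ± 0.372, adjusted p = 1). The KO call of Rab3d was lost without KO 1A (0.092) or 1B (0.066) and with both summed (0.074).

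**Figure D2:**
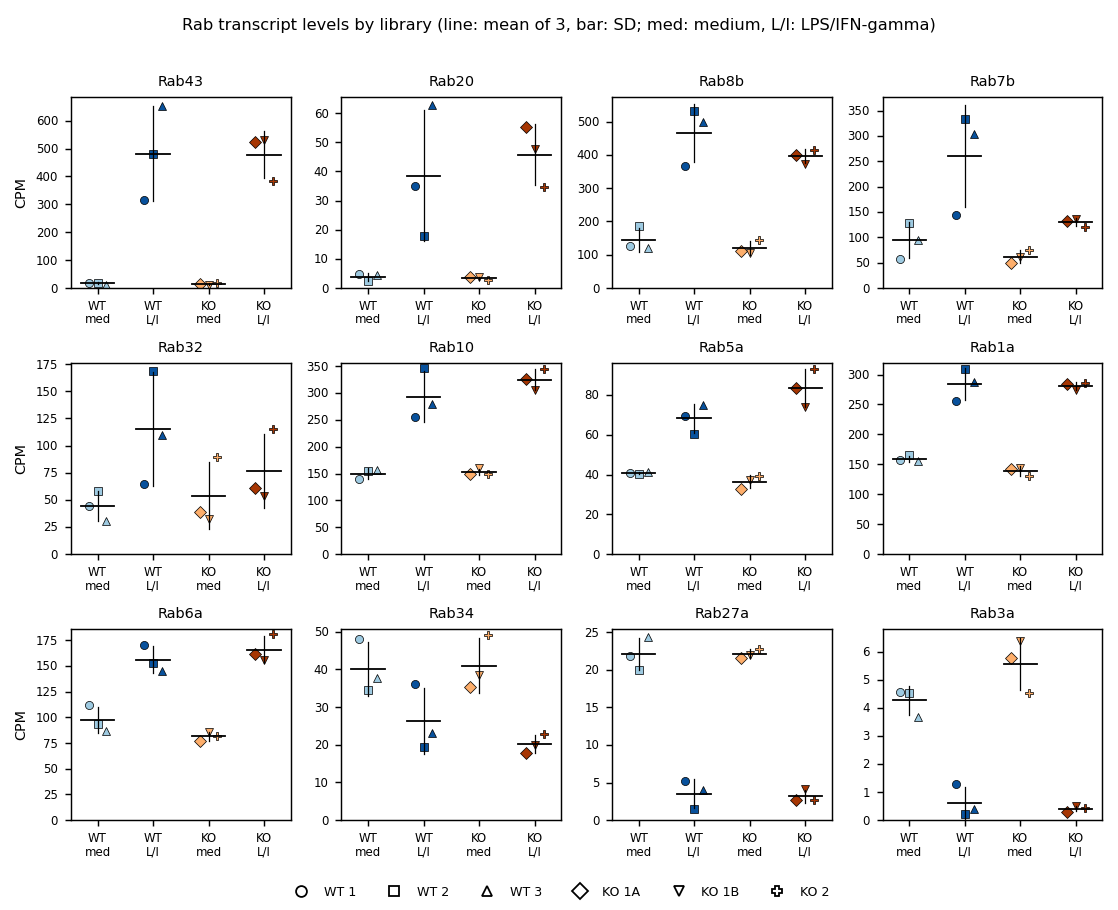
CPM of 12 Rab genes in each of the 12 libraries, by group (med is medium, L/I is LPS/IFN-gamma), on linear axes that start at 0. Symbols mark the clones, lines the mean of 3 libraries and bars the SD. In Rab43, Rab20 and Rab8b the stimulated libraries lie above the medium ones, and in Rab27a and Rab3a below.

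The 3 remaining Rabs act at the cilium or as adaptors of ubiquitin ligases. Rab28, a Rab of the cilium and the highest of them per kilobase, stood at 40.1, 37.3 and 46.9 CPM in medium and 33.3, 35.5 and 40.3 CPM under LPS/IFN-gamma in the WT clones. Rab28 values in the KO clones were 49.8, 46.4 and 48.2 CPM and 44.1, 44.5 and 42.7 CPM. Each clone was slightly lower under stimulation than in medium, with overlap between the WT groups, and Rab28 was not called (-0.19 ± 0.108, adjusted p = 0.17, and -0.14 ± 0.108, adjusted p = 0.3). Rab40c, which carries a SOCS box and joins a Cullin 5 ubiquitin ligase, fell in WT clones from 16.9 ± 0.654 to 8.53 ± 0.35 CPM (-0.99 ± 0.14, adjusted p = 0.00023) and was at 10.9 ± 1.73 and 8.69 ± 0.45 CPM in KO clones (-0.32 ± 0.14, adjusted p = 0.074). Rab23, an inhibitor of Hedgehog signalling, was called lower in KO clones (-0.61 ± 0.173, adjusted p = 0.012) and not in WT clones (-0.10 ± 0.172, adjusted p = 0.65), and without KO 1A the KO call was lost (0.12).

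Rabs that share a number are close relatives, and in 7 of 10 such pairs the log2 responses differed in the same direction in every clone. Pairs of unrelated genes were not compared, so this count is not shown to be particular to relatives. Responses were compared within each clone after 0.5 CPM had been added, so the scale of the library cancels except at low levels. One sign in all 6 clones gives the smallest p an exact 2-sided sign-flip permutation test over 6 clones can reach (0.0312, adjusted over the 10 pairs 0.0446). That test was chosen after the values had been seen, and with KO 1A and 1B averaged no pair passes, since the smallest p is then 0.0625 (adjusted 0.0893). Rab11a exceeded Rab11b by 1.08 ± 0.20 (SD over clones), Rab1a exceeded Rab1b by 1.01 ± 0.26, and Rab8b exceeded Rab8a, the first minus second difference being -1.57 ± 0.28. Rab5a exceeded Rab5b by 0.40 ± 0.32, and Rab5b was below Rab5c, at -0.30 ± 0.19. Over the clones these differences ran from 0.02 to 0.84 and from -0.44 to -0.04, so some were close to 0. The Rab5 pairs share genes, so the 10 pairs are not independent. Between Rab3a and Rab3d the difference was -1.81 ± 0.54, and between Rab4a and Rab4b it was -0.64 ± 0.39. The added 0.5 CPM shrinks both, since Rab3a and Rab4a are low, and without it they were -2.80 ± 0.96 and -1.12 ± 0.61. In counts, Rab1a went from 50.1% to 66.9% of the Rab1 pair, Rab8a from 41.3% to 19.0% of the Rab8 pair and Rab11a from 81.8% to 90.4% of the Rab11 pair. For Rab2a and Rab2b the difference ran from -0.26 to 0.30 over the clones (exact p = 0.969), for Rab5a and Rab5c from -0.34 to 0.40 (exact p = 0.406, adjusted 0.451), and for Rab7 and Rab7b from -1.14 to 0.07 (exact p = 0.0625, adjusted 0.0781). These ranges do not show that the members of those pairs respond alike.

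**Figure D3:**
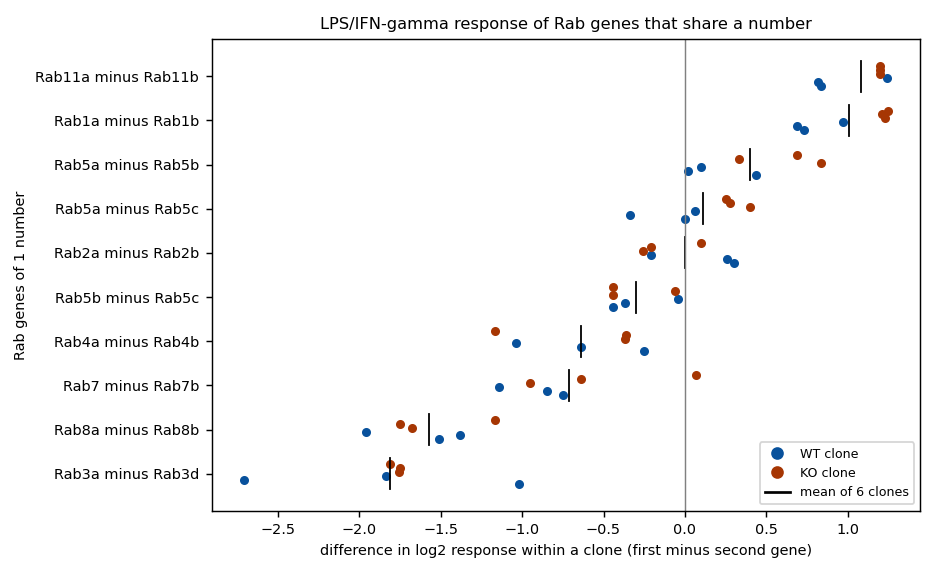
Difference in log2 response to LPS/IFN-gamma between Rab genes of 1 number, within each of 6 clones (points; WT and KO clones in different colours, vertical line at the mean). Rab11a over Rab11b and Rab1a over Rab1b lie right of 0 in each clone, and Rab3a against Rab3d and Rab8a against Rab8b lie left of 0.

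Per kilobase of exon, the level of Rab transcripts covered a wide range (levels are given in CPM per kb of merged exons, the scale for comparing genes). In WT medium Rab31 was highest at 117 ± 6.33, followed by Rab5c at 88.2 ± 1.13 and Rab1b at 67.7 ± 1.78. The ranges of these 3 over the clones overlapped neither each other nor that of Rab2a, next in order at 46.3 ± 3.25. Rab2a overlapped with Rab10 (42.8 ± 2.83), and Rab10 with Rab1a (41.8 ± 1.37). At the bottom were Rab19 at 0.773 ± 0.395, Rab4a at 0.691 ± 0.046 and Rab15 at 0.166 ± 0.156. In KO medium the first 6 genes came in the same order, from Rab31 at 104 ± 15.3 to Rab1a at 36.6 ± 2.17.

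Stimulation reordered the family. Rab5c was first in both genotypes, at 156 ± 8.02 in WT and 141 ± 22 in KO clones. Rab43 went from rank 33 (2.98) to rank 3 (87.3 ± 30.8) in WT clones and from rank 34 (2.55) to rank 4 (86.6 ± 15.1) in KO clones, within the shared-exon limit given above. In stimulated WT clones the ranges of Rab8b (77.4 to 112), Rab43 (56.7 to 118), Rab31 (58.9 to 114), Rab10 (72.6 to 98.4) and Rab1a (67.5 to 81.5) overlapped, so ranks 2 to 6 were not separated. Rab1b at rank 7 (64 to 76.7), Rab7b (31.4 to 72) and Rab32 (27.5 to 72.4) reached into the lower part of these ranges, so rank 6 is no clear border. Rab8b went from rank 9 to rank 2 in WT clones and from rank 10 to rank 5 in KO clones. Rab27a dropped from rank 28 to 39 in WT clones and from 27 to 39 in KO clones. Scaling by the longest transcript kept 9 of the 10 highest genes in WT medium among the first 10. In stimulated WT clones that scaling put Rab43 at rank 2 and Rab8b at rank 4.

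**Figure D4:**
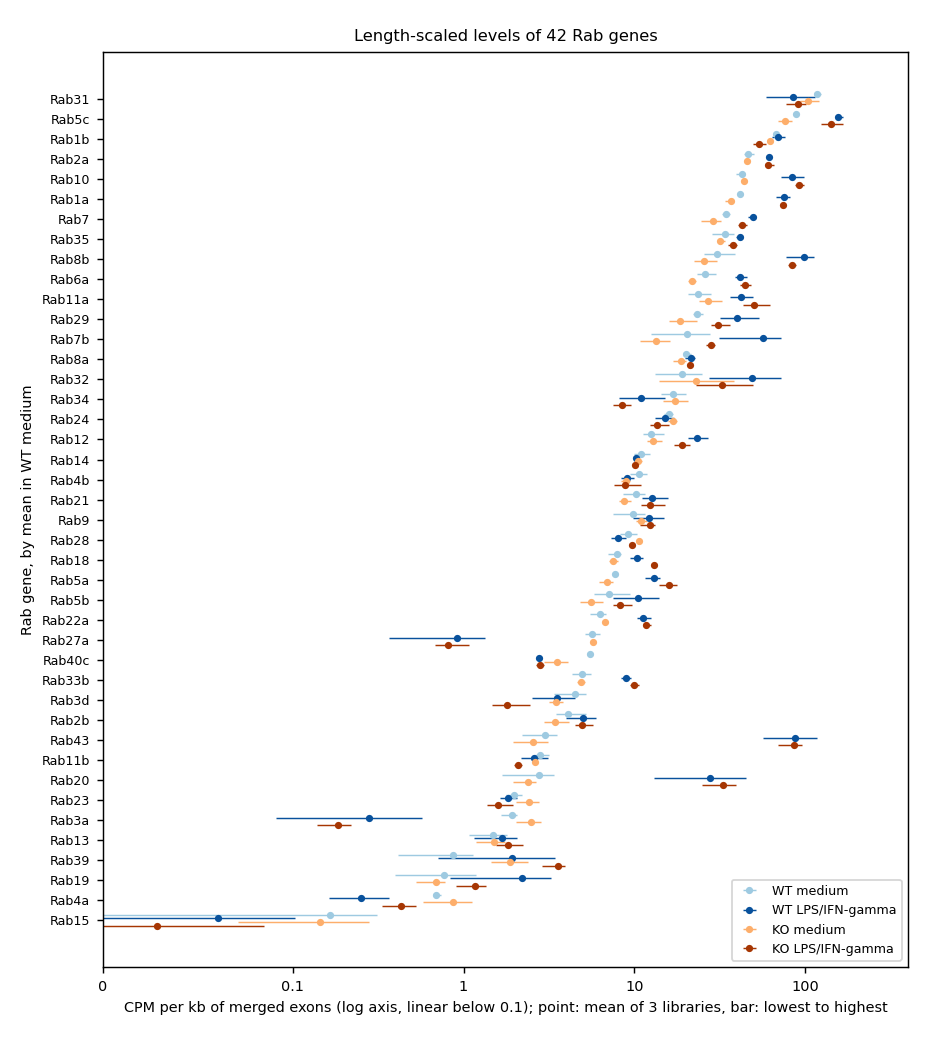
Level of each of the 42 Rab genes in CPM per kb of merged exons (log axis, linear below 0.1), in order of the WT medium mean. Points are means of 3 libraries and bars run from the lowest to the highest library. Rab31 tops WT medium at 117, and Rab43 moves from 2.98 to 87.3.

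Between the genotypes no Rab gene was called. In medium 0 of 42 members passed edgeR's test, beside 1.21% of all genes. An unadjusted p below 0.05 was found for 1720 of all 12231 genes and for 3 of the 42 members. The members' log2 differences, KO against WT, ran from -0.64 (Rab40c) to 1.12 (Rab39), and in 8 members the 3 KO and 3 WT libraries did not overlap, which held for 20.9% of all genes. The lowest adjusted p was that of Rab40c, at 17, 17.5 and 16.2 CPM in WT and 10.9, 9.13 and 12.6 CPM in KO clones (-0.64 ± 0.138, adjusted p = 0.051). DESeq2 (adjusted p = 0.0029) and RLE size factors (0.05 after rounding, below the threshold) called Rab40c. Rab39, at 1.23, 3.13 and 3.36 CPM in WT and 7.05, 5.48 and 4.28 CPM in KO clones, was not called (1.12 ± 0.51, adjusted p = 0.36).

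Under LPS/IFN-gamma 0 of 42 members were called, beside 4.64% of all genes. There 2596 of all 12231 genes and 6 of the 42 members had an unadjusted p below 0.05. The differences ran from -1.01 (Rab15) to 0.89 (Rab39), and 6 members did not overlap between genotypes, which held for 24% of all genes. Rab1b came closest, at 155, 174 and 145 CPM in WT and 122, 113 and 134 CPM in KO clones (-0.37 ± 0.094, adjusted p = 0.052). Rab3d was next, at 15.3, 18.9 and 10.5 CPM in WT and 6.14, 6.16 and 10.3 CPM in KO clones (-0.99 ± 0.27, adjusted p = 0.064). Rab7b and Rab18 followed (-1.0 ± 0.326, adjusted p = 0.11, and 0.31 ± 0.102, adjusted p = 0.11). All 4 were called by DESeq2, at adjusted p = 0.0047, 0.013, 0.03 and 0.04. Without WT clone 3, edgeR called Rab1b (0.039) and Rab3d (0.019), and without WT clone 1 it called Rab7b (-1.29 ± 0.177, 0.0093).

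Of the 9 macrophage markers 1 was called between the genotypes in medium and none under stimulation, where the lowest adjusted p was 0.051. By edgeR, 4 of them in medium and 6 under stimulation had an unadjusted p below 0.05. Their median log2 difference, KO against WT, was -1.06 in medium (from -2.82 to 0.14) and -0.84 under stimulation (from -2.3 to 2.1). Itgam, which encodes an integrin chain, was called lower in KO clones in medium (-1.75 ± 0.257, adjusted p = 0.0098), and Adgre1, the gene of the F4/80 antigen, was at 120 ± 82.7 CPM in WT and 16.9 ± 7.35 CPM in KO clones (-2.82 ± 0.596, adjusted p = 0.052). Cd14 had fitted differences in the other direction, which were not called (0.14 ± 0.495 in medium and 0.54 ± 0.496 under stimulation). Mertk had the largest difference in that direction under stimulation, at 0.619 ± 0.438 CPM in WT and 2.67 ± 0.748 CPM in KO clones. It rested there on 19 and 77 counts. Whether the state of the clones has a part in the Rab values was not tested.

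**Figure D5:**
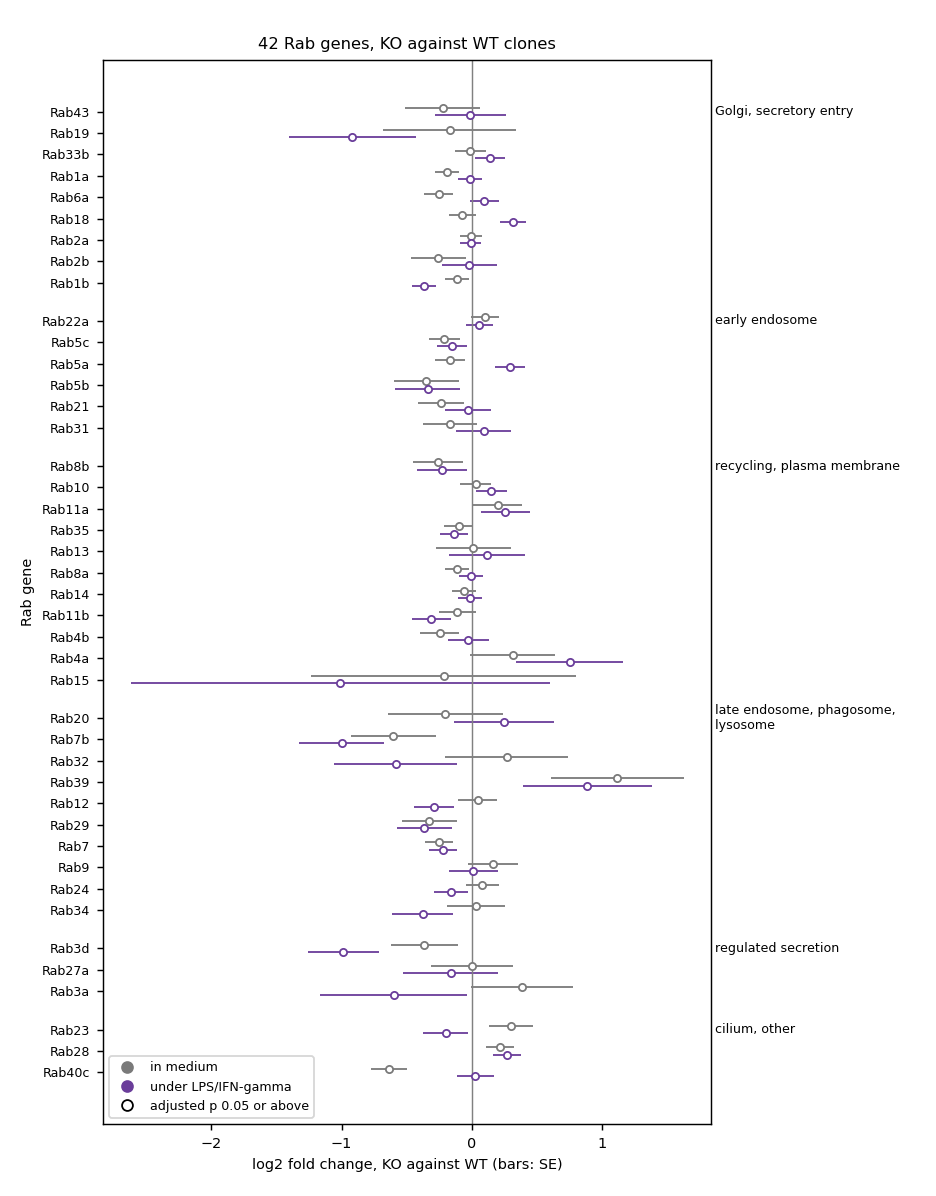
Log2 difference of each of the 42 Rab genes, KO against WT clones, in medium and under LPS/IFN-gamma. Points are fitted values and bars their SE, and open points have an adjusted p of 0.05 or above, which holds for each gene here. Rab40c lies at -0.64 in medium and Rab3d at -0.99 under LPS/IFN-gamma.

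The response itself did not differ detectably between the genotypes for any Rab. The interaction, KO response minus WT response, called 0 members and 0% of all genes with edgeR. An unadjusted p below 0.05 was found for 611 of all 12231 genes and for 3 members. Those were Rab40c (0.67 ± 0.198, adjusted p = 0.73, and 0.18 in the blocked fit), Rab5a (0.46 ± 0.164, adjusted p = 0.83) and Rab18 (0.39 ± 0.144, adjusted p = 0.88). DESeq2 and the fit with clone as a block also called 0 members. With the block, which pairs the libraries of a clone, 9 of 42 members had an unadjusted p below 0.05. The same held for 1418 of all 12231 genes. The genes called in 1 genotype and not in the other (Rab19, Rab32 and Rab40c in WT, and Rab3d, Rab21 and Rab23 in KO clones) are thus not shown to respond differently.

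Genes that act on Rabs were read from 4 lists, whose called shares are set beside those of all genes (47.4% in WT and 54.3% in KO clones). Of 8 genes of prenylation and membrane cycling, 4 rose and none fell in each genotype (50% called). Among those that rose were Chm (0.62 ± 0.077 in WT and 0.64 ± 0.077 in KO clones), the Rab escort protein, Rabggtb (0.50 ± 0.113 and 0.63 ± 0.113), a subunit of the prenyltransferase, and Rabif (0.58 ± 0.107 and 0.55 ± 0.107). The calls of Rabggtb and Rabif were lost with library totals alone.

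Of 35 exchange factors 7 rose and 10 fell in WT (48.6% called) and 8 rose and 12 fell in KO clones (57.1%), shares near those of all genes. Smcr8, the partner of C9orf72, rose by 1.39 ± 0.109 and 1.50 ± 0.11, and Rab3ip, which activates Rab8, by 0.71 ± 0.126 and 0.79 ± 0.126. The DENN domain genes Dennd4a (-1.35 ± 0.176 and -1.42 ± 0.176) and Dennd2c (-2.54 ± 0.398 and -2.62 ± 0.417) and the Rab5 exchange factor Rin1 (-2.91 ± 0.418 and -1.15 ± 0.439) were lower. The KO call of Rin1 (adjusted p = 0.045) was lost in 7 of 12 alternatives. Of 32 GTPase-activating proteins 5 rose and 12 fell in WT (53.1% called) and 7 rose and 13 fell in KO clones (62.5%). Tbc1d4, also called AS160, which acts on Rab10, changed by -2.33 ± 0.231 and -3.05 ± 0.242, Tbc1d16 by -1.46 ± 0.165 and -1.59 ± 0.165 and Sgsm2 by -1.86 ± 0.26 and -2.14 ± 0.264. Tbc1d22b (0.85 ± 0.143 and 0.86 ± 0.143) and Tbc1d10b (0.78 ± 0.143 and 1.02 ± 0.143) rose. The medians were 0.04 and -0.07 for exchange factors and -0.30 and -0.42 for GTPase-activating proteins in WT and KO clones.

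Of 38 effectors 11 rose and 11 fell in WT clones (57.9% called), and 13 rose and 13 fell in KO clones (68.4%). Rab11fip1, a Rab11 effector, rose by 2.76 ± 0.356 and 2.83 ± 0.358, while its relative Rab11fip2 changed by -0.72 ± 0.127 and -1.24 ± 0.128. The lipid phosphatase gene Inpp5b (1.85 ± 0.154 and 1.55 ± 0.153) and Rilpl2 (1.67 ± 0.205 and 1.85 ± 0.206), which binds phosphorylated Rab8 and Rab10, rose. The Rab5 effector Appl2 (-1.43 ± 0.141 and -1.72 ± 0.144) and the kinase gene Lrrk1 (-0.91 ± 0.127 and -1.63 ± 0.131) fell.

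Between the genotypes, 3 of the 113 tested genes of these lists were called in medium (2.65%, against 1.21% of all genes) and 5 under stimulation (4.42%, against 4.64%). Lrrk2, the kinase that phosphorylates several Rabs, was at 78.7 ± 18.4 CPM in WT and 188 ± 7.85 CPM in KO clones in medium (1.26 ± 0.254, adjusted p = 0.043). Tbc1d14, which binds Rab11, was lower in KO clones in medium (-1.34 ± 0.237, adjusted p = 0.024) and under stimulation (-1.59 ± 0.242, adjusted p = 0.0064). Rin1 was lower in medium (-1.92 ± 0.383, adjusted p = 0.039). Under stimulation Lrrk1 (-0.90 ± 0.13, adjusted p = 0.0048) and the Rab7 effector Plekhm1 (-0.84 ± 0.207, adjusted p = 0.046) were lower in KO clones. The Rab11 effector Rab11fip5 (-2.05 ± 0.387, adjusted p = 0.017) and Tbc1d2, which switches off Rab7 (-1.78 ± 0.449, adjusted p = 0.049), were lower as well. Without KO 1A each of these 8 calls was lost, with an adjusted p of up to 0.33 over the alternatives, and the calls held in 3 (Tbc1d2) to 10 (Lrrk1) of 11 alternatives.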

How the data were processed

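RNA-seq was made from 12 cultures of RAW264.7 clones. The authors deposited a table of raw read counts per gene. Per the submitters' processing notes the build is mm10 (GRCm38), and DESeq2 is named there without a role. For the aligner, counting tool and strand setting: not given in the sources used here. Of 12483 rows, 12305 had a name in GENCODE M21, and 178 did not.

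Counts were tested with edgeR 4.0.16 in R 4.3.3: filterByExpr (12231 genes kept), TMM scaling, a mean for each of 4 groups over 12 libraries and the robust quasi-likelihood test, with Benjamini-Hochberg adjustment over all genes and a threshold of 0.05. CPM use TMM-scaled totals. Paralog pairs were tested over 6 clones with scipy 1.17.1.

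Alternatives were RLE scaling, library totals, no filter, DESeq2 1.42.0, clone as a block, each clone left out, KO 1A and 1B summed, and longest-transcript lengths. The medium and stimulated library of a clone share that clone, and their deviations from the group means correlated at 0.62 to 0.70 in WT and 0.29 to 0.51 in KO clones. The members and the gene lists were chosen with earlier results of these data known.

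Values of every library are given for members called in a response with a log2 fold change of at least 1 in size and at least 1 CPM in a group, and for the highest per kilobase in medium of each role. From each list up to 4 genes with the smallest p in each response were named, and each gene called between genotypes. Some genes that this rule names are not reported here. Libraries held 10624591 to 14388590 counts, and members with few counts are named as such. Promoter sequences are from RefSeq (GRCm38.p6), and no window was found for Rab18, Rab2a, Rab4a and Rab7b.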

Additional observations from a re-analysis of the deposited data

How the results depend on the processing

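The total of Rab genes called in either response stayed within 1.5 times its value under each alternative run. The split by direction did not. With library totals alone higher calls went from 19 to 13 in WT and from 18 to 12 in KO clones. Lower calls went from 5 to 15 and from 6 to 14. In the main fit's scaling, 18 of 24 calls in WT and 17 of 24 in KO clones held whichever clone was left out. With clone as a replicate block 30 members were called in each genotype, beside 7485 and 8082 of all genes, and no call made without the block was lost; the block could not enter comparisons of KO with WT, since clones are nested in genotype. Among members called under at least 1 of the 2 scales, Rab1b (-0.32) and Rab8a (-0.28) changed sign in the WT response with library totals alone. Members called under neither scale are not counted there, and the median of all members went from 0.36 to 0.

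KO against WT depended more on the setting. In medium 148 genes were called, 618 with DESeq2, 16 with KO 1A and 1B summed and 14 to 419 with a clone left out, the lowest without KO 1A (24 without KO 1B) and the highest without WT clone 3. Under stimulation 567 were called, 1187 with DESeq2, 73 with 1A and 1B summed and 48 to 972 with a clone left out (48 without KO 1A, 69 without KO 1B, 287 without KO 2, 972 without WT clone 3). The interaction called 0 genes (611 at an unadjusted p below 0.05), 28 with DESeq2, 40 with clone as a replicate block and 0 to 4 with a clone left out. For the Rab members, the counts were 1 with DESeq2 and 1 with RLE in medium, and 4 with DESeq2 and 0 to 2 with a clone left out under stimulation. The cause was not tested.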
